A study of Mus musculus with 9 samples.

Results

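Gzma, Gzmb, Prf1, Nkg7, Ccl3, Ccl4, Ccl5 and Xcl1, the cytotoxic granule and lymphocyte chemokine genes, were followed by symbol through single cell RNA sequencing of mouse bone marrow: 8 of the 31053 genes in the count matrix. Each symbol matched 1 gene identifier. The matrix held unique molecular identifiers (UMIs), which count captured RNA molecules at their 3' ends, from 9 libraries of femur marrow, 1 per mouse, made with the 10x Chromium 3' v3.1 kit. The mice were adult females of 9 to 10 weeks for which neither an introduced allele nor a drug treatment is described: 3 of the inbred New Zealand Black strain (NZB), 3 of the inbred New Zealand White strain (NZW), and 3 of their F1 hybrid, NZBWF1, which is used as a model of systemic lupus erythematosus. All 9 were bought from the same supplier. The marrow was not sorted, and NK and T cells were few.

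Cytotoxic lymphocytes kill by releasing granules onto a target cell. Prf1 encodes perforin, which opens pores in the target membrane; Gzma and Gzmb encode granzymes A and B, serine proteases that enter the target and cleave its proteins; and Nkg7 encodes a small membrane protein of these granules that takes part in their release. The same cells secrete chemokines. Ccl3, Ccl4 and Ccl5 encode chemokines that attract monocytes and lymphocytes, and Xcl1 encodes lymphotactin, the ligand of Xcr1 on cross-presenting dendritic cells. Natural killer (NK) cells store granule proteins and their messages before they meet a target, whereas most T cells make them only after activation.

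The genes lie at 6 places in the mm10 genome, given here from GENCODE vM21. Gzma lies on chromosome 13 from 113093825 to 113100981 on the minus strand, with up to 6 exons, and Gzmb on chromosome 14 from 56258838 to 56262260 on the minus strand with 5. Prf1 lies on chromosome 10 from 61297833 to 61304680 on the plus strand with 3 exons, and Nkg7 on chromosome 7 from 43437073 to 43438249 on the plus strand with 4. The genes of 3 chemokines share a stretch of chromosome 11: Ccl5 from 83525778 to 83530518 on the minus strand, Ccl3 from 83647844 to 83649355 on the minus strand and Ccl4 from 83662584 to 83664683 on the plus strand. Xcl1 lies on chromosome 1 from 164931644 to 164935527 on the minus strand. All 4 chemokine genes have 3 exons.

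Promoter sequence of the 250 bases before the RefSeq start was held for 6 of the 8 genes, all but Ccl4 and Ccl5, and was searched for short words bound by factor families known in cytotoxic lymphocytes. The sequences below are those of the granule genes most restricted to NK cells (Gzma, Prf1), of the gene called most often between strains (Nkg7) and of the chemokine shared by NK and T cells (Xcl1). In several of the classes where Nkg7 was called, no other of the 8 genes was high enough to be tested. They are from RefSeq in GRCm38.p6, 5' to 3' on the gene's strand, without the bases that overlap an annotated gene. Capitals mark words found: TGTGGT (RUNX), GTGTGA (T-box), AGGAAG (ETS) and, in no sequence printed here, TGANTCA (AP-1) and TGACGTCA (CRE), each read on both strands.
Gzma, chr13:113100982-113101231 (minus strand): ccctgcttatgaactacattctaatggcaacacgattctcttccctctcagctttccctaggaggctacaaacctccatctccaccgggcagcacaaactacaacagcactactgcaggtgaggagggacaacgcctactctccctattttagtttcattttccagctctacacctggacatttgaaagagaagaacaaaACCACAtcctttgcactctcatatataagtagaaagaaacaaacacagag
Prf1, chr10:61297586-61297832 (plus strand): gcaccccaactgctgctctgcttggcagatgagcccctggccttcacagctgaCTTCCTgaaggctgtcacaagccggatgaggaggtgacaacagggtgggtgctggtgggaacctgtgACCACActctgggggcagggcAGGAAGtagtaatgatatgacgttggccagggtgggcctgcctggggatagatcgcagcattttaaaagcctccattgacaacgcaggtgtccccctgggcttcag
Nkg7, chr7:43436888-43437072 (plus strand): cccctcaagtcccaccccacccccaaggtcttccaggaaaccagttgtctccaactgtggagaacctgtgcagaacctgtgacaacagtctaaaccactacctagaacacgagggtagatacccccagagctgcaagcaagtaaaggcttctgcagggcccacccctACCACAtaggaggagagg
Xcl1, chr1:164935528-164935772 (minus strand): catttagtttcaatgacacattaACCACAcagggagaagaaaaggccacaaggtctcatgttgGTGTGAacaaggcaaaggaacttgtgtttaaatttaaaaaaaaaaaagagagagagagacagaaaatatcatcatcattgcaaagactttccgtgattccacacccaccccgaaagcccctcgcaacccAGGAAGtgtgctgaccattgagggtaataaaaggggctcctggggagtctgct
The RUNX word was present in all 6 windows and in 14.05% of the 32851 promoter windows of the same length in the table. The T-box word was present in 3 of the 6 (Gzmb, Nkg7, Xcl1, 12.3% of all windows), the ETS word in 3 (Prf1, Nkg7, Xcl1, 29.5%), the AP-1 word in 1 (Gzmb, 6.75%) and the CRE word in 0 (1.55%). The T-box and ETS words of Nkg7 lie in the 65 bases left out above. A word match describes the letters only.

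Of 68444 barcodes called as cells, 39051 had at least 1000 UMIs and 500 genes with at most 10% mitochondrial UMIs, and 37593 remained after 1458 likely doublets were removed, 2407 to 5426 per mouse with 7858010 to 17327216 UMIs per mouse. Among the called barcodes, 557 barcode sequences occurred in 2 or more libraries. Cells were placed in classes by marker genes, none of them a gene described here: the NK gate asked for at least 3 of 7 markers (Ncr1, Klrb1c, Klre1, Klrd1, Klrb1a, Klri2, Klrk1) and the T gate for at least 2 of 9 (Cd3d, Cd3e, Cd3g, Trac, Cd5, Cd6, Cd28, Bcl11b, Themis). The NK gate held 482 cells (1.28% of kept cells, 33 to 72 per mouse, median 1436 UMIs), the T gate 595 (1.58%, 33 to 135, median 1291), and 173 cells met both gates and no other (10 to 29 per mouse). For NZB, NZW and NZBWF1 in turn, the NK gate took 1.53 ± 0.77%, 1.10 ± 0.11% and 1.55 ± 0.46% (SD, n = 3) of kept cells, and the T gate 1.86 ± 1.06%, 1.06 ± 0.28% and 2.70 ± 2.34% (exact permutation test over 280 partitions, two-sided, p = 0.529 and p = 0.493, unadjusted over the 2 classes, the smallest p possible is 0.00357). The T gate took 5.37% in NZBWF1 replicate 1, without which the NZBWF1 mean was 1.36%. The labels were checked with genes left out of the gates: all 5 NK check genes (Il2rb, Txk, Tbx21, Eomes, Ctsw) were higher in NK-gated than in T-gated cells, all 5 T check genes (Lat, Lck, Thy1, Trbc2, Cd27) the reverse, and all 10 were higher there than in B-gated cells. The separation was partial. Per 1000000 UMIs, NK-gated against T-gated cells had 944 and 450 of Il2rb, 352 and 246 of Txk and 387 and 472 of Lck. It was wider for Eomes (421 and 78.1) and Trbc2 (372 and 1718). The make-up of free RNA was read from barcodes under 100 UMIs, where the 8 genes had mean levels of 1.90 (Gzmb) to 91.2 (Ccl5) per 1000000 UMIs. Its amount per cell was estimated from the share of B-gated cells without S100a8 or S100a9 UMIs, on the assumption that these UMIs were free RNA there. By this estimate it was 0.508 to 1.65% of the UMIs of a median NK-gated cell.

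Levels are given as CPM, the UMIs of the gene per 1000000 UMIs of the class in each mouse, for mice with at least 10 cells of the class. The granule genes Gzma and Prf1 were highest in NK-gated cells. Gzma had 4629.5 ± 975 CPM in NK-gated cells (SD, n = 9 mice), 1529 ± 1150.3 in cells of both gates and 75.5 ± 42.7 in T-gated cells; its range in NK-gated cells (2537 to 5680.1) overlapped that of cells of both gates (636 to 4079) and stood clear of that of T-gated cells (12.6 to 147). NK-gated cells, 1.28% of cells, carried 72.9% of the 5870 Gzma UMIs. Prf1 followed the same order with 285 ± 82.5, 119 ± 74.1 and 36.3 ± 25.0 CPM, and 59.6% of its 428 UMIs were in NK-gated cells.

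**Figure D1:**
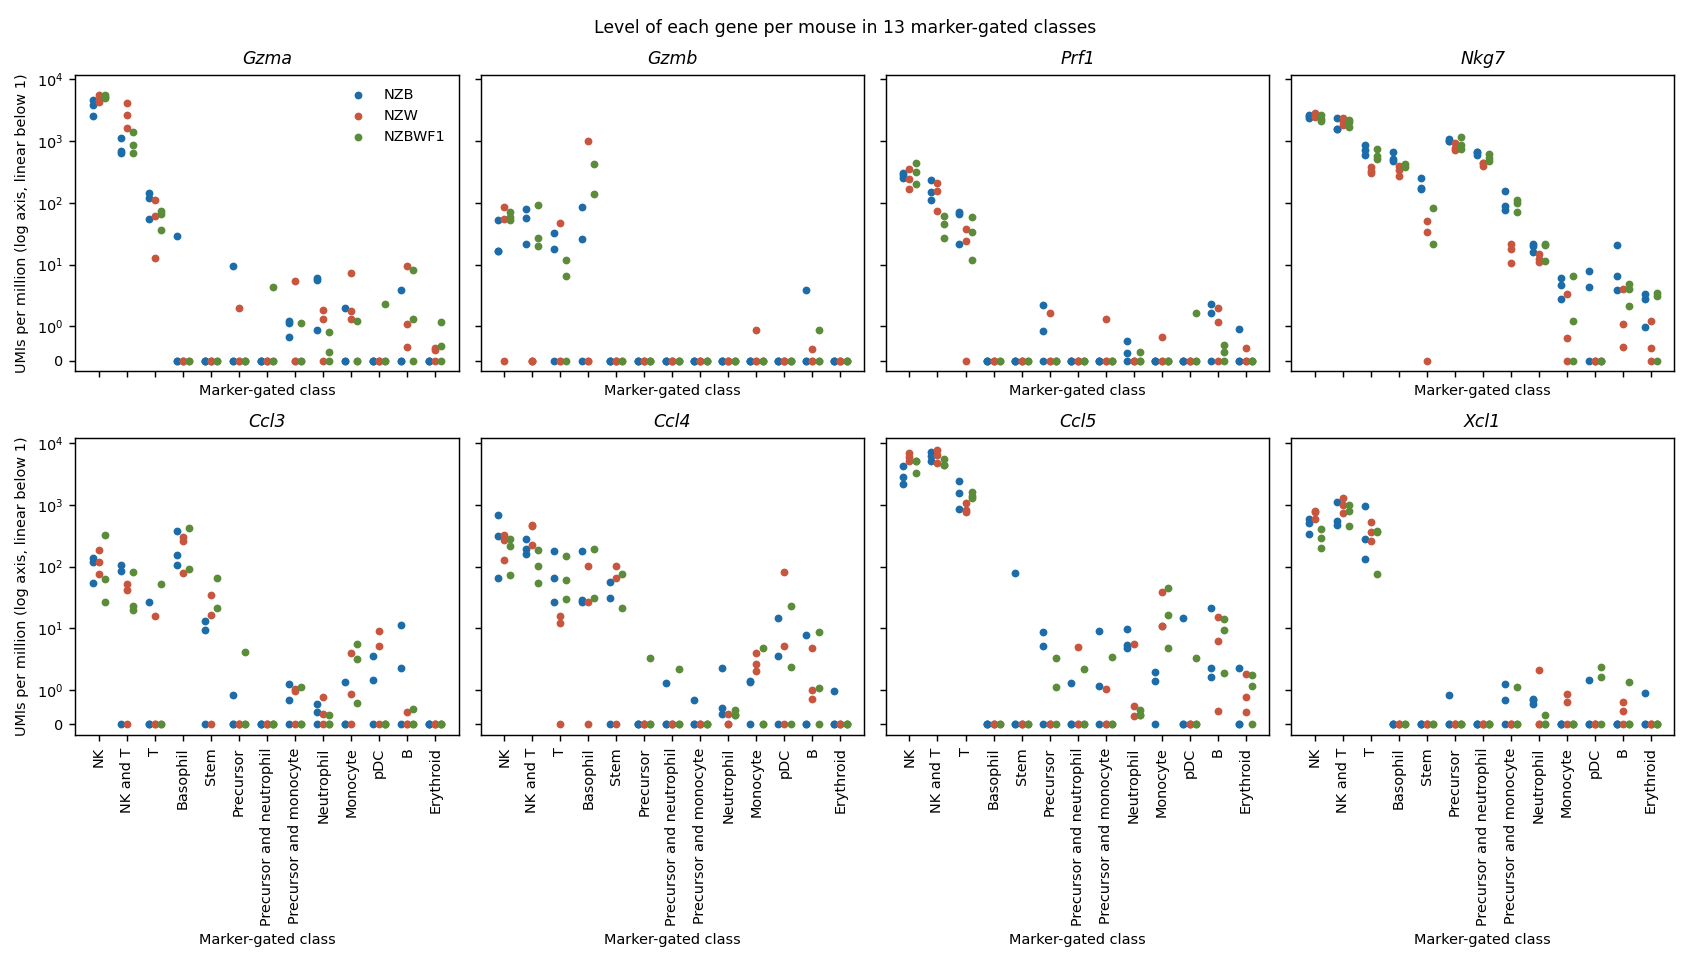
Level of each of the 8 genes (CPM, log axis that is linear below 1) in 13 marker-gated classes, 1 point per mouse with at least 10 cells, coloured by strain. Gzma, Prf1, Ccl5 and Xcl1 have their highest mean levels in the NK, T and joint NK and T classes at the left, with Ccl5 points of up to 77.6 in stem-gated and 44.4 in monocyte-gated cells, Nkg7 stays near 925 in precursors, and Gzmb, Ccl3 and Ccl4 have points above 25 in basophils.

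Ccl5 and Xcl1 were shared more evenly between NK-gated and T-gated cells. Ccl5 had 4541 ± 1525 CPM in NK-gated cells, 5729.8 ± 1176 in cells of both gates and 1314 ± 533 in T-gated cells, and the range of NK-gated cells (2165 to 6879) overlapped those of both other classes. These classes carried 45.3%, 17.9% and 14.1% of the 8937 Ccl5 UMIs. Xcl1 had 499 ± 208, 825 ± 295 and 370.5 ± 259 CPM, ranges that all overlapped, and 36.1%, 20.1% and 27.5% of its 1182 UMIs. In B-gated cells, a large class that should lack all 8 genes, no gene passed a mean of 10 CPM. Ccl5 reached 345.9 CPM in 1 NZW mouse among macrophage-gated cells, on 7 UMIs, and 146 CPM in 1 mouse among nonclassical monocyte-gated cells, which held 15 Ccl5 UMIs in all.

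Nkg7 was the gene with the widest reach. Besides 2500.3 ± 218 CPM in NK-gated cells, 1975 ± 310.2 in cells of both gates and 562 ± 198 in T-gated cells, it had 925 ± 155 in precursor-gated cells, which carry the azurophil granule genes Mpo, Elane, Prtn3 and Ctsg of early neutrophil and monocyte precursors. It had 539.8 ± 103 in cells of the precursor and neutrophil gates and 435 ± 119 in basophil-gated cells (n = 8 mice). Precursor-gated cells carried 37.3% of the 13194 Nkg7 UMIs, more than the 16.9% of NK-gated cells. The level fell to 72.7 ± 48.1 in cells of the precursor and monocyte gates and to 16.6 ± 4.50 in neutrophil-gated cells.

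Gzmb, Ccl3 and Ccl4 were sparse, and NK-gated cells held a minority of their UMIs. Of 268 Gzmb UMIs in all kept cells, 43 (16.04%) were in NK-gated and 63 (23.5%) in basophil-gated cells. For Ccl3 these were 107 (28.1%) and 65 (17.1%) of 381 UMIs, and for Ccl4 214 (29.6%) and 30 (4.14%) of 724. Cells that met several gates at once, outside the joint classes, held 78 (29.1%) of the Gzmb, 82 (21.5%) of the Ccl3 and 149 (20.6%) of the Ccl4 UMIs, and cells that met no gate 59 (22.0%), 35 (9.19%) and 48 (6.63%). The gates met at once can include the NK or the basophil gate, so these UMIs need not lie outside NK cells or basophils. Basophil-gated cells, chosen by Prss34, Mcpt8, Cpa3, Fcer1a and Ms4a2, numbered 126. Ccl3 there had 376, 105 and 152 CPM across the NZB replicates, 301, 79.6 and 264 across NZW, and 92.6 and 416 in the NZBWF1 mice with 10 cells or more, so that no strain stood apart and no mouse lacked it. Gzmb was uneven: 38 of the 63 UMIs came from 1 NZW mouse (1008 CPM), 19 of them from 1 cell, and it was 0 in 3 of the 8 mice. Prf1, Ccl5 and Xcl1 had 0 UMIs in basophil-gated cells, a count that allows up to 3 by counting error, and none of the 7 NK-gate or 9 T-gate markers was detected there.

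Against B-gated cells of the same mice (edgeR quasi-likelihood test with mouse as a block, Benjamini-Hochberg adjustment over 9762 genes), all 8 genes were higher in NK-gated cells, where 37.8% of genes tested were called in either direction, all 8 in T-gated cells (40.1%) and all 8 in cells of both gates (37.2%). In T-gated cells Gzmb lost the call with DESeq2 (adjusted p = 0.0984) and with 1 more marker required (edgeR, 0.0948), and Ccl3 without NZBWF1 replicate 3 (2.37, edgeR adjusted p = 0.124). In all, 4 were higher in basophil-gated cells (37.3% of all genes called): Gzmb by 8.23 ± 0.64 log2 units (SE), Ccl3 by 7.96 ± 0.60, Nkg7 by 6.45 ± 0.42 and Ccl4 by 4.30 ± 0.88 (edgeR adjusted p from 5.84e-26 to 3.51e-05). These calls held under all alternatives, but Gzmb ranged from 3.93 to 9.05 (edgeR or DESeq2 adjusted p up to 0.0409), and Ccl4 had adjusted p up to 0.0393. With 38 of the 63 Gzmb UMIs from 1 mouse, its SE, taken from the spread over all classes, does not measure its spread over basophil-gated mice. In stem-gated cells (33.7% called), chosen by Hlf, Mecom, Procr, Esam, Mmrn1 and Cd34, Nkg7 was higher by 4.63 ± 0.51, Ccl3 by 5.09 ± 0.95 and Ccl4 by 3.87 ± 0.76. Of the myeloid classes, Nkg7 was higher by 8.39 ± 0.25 in precursor-gated cells (69% of genes called), by 7.85 ± 0.25 in cells of the precursor and neutrophil gates (65.3%), by 4.37 ± 0.29 in cells of the precursor and monocyte gates (67.1%) and by 3.27 ± 0.30 in neutrophil-gated cells (82.9%). In macrophage-gated cells (27% called, 69 cells, 4 mice with 10 or more) Ccl3, Ccl4 and Xcl1 were called higher, on UMIs that came mostly from 1 mouse each, without which (NZW replicate 2 for Ccl3 and Ccl4, NZW replicate 3 for Xcl1) the calls were lost (edgeR adjusted p = 0.895, 0.8003 and 0.922). Single genes were called higher in plasma-gated cells (Gzma, 38.3% of genes called, lost without NZBWF1 replicate 2) and pDC-gated cells (Ccl4, 59.4%, lost without NZW replicate 2), 0 in nonclassical monocyte-gated cells (43%), and lower calls were Ccl4 in cells of the precursor and monocyte gates, Prf1 in monocyte-gated cells (76.5%) and 5 genes in erythroid-gated cells (76.1%). Of these lower calls, Ccl4 in erythroid-gated cells alone held under all alternatives, and the others were lost under at least 1, erythroid Prf1 under 7 (edgeR or DESeq2 adjusted p up to 0.292) and erythroid Ccl3 under 5 (edgeR adjusted p up to 0.2296). B-gated levels were near 0, so that these log2 values depend on the small count added in the fit. For the same reason the 8 genes passed the filter on low counts through other classes, where they were higher. Higher calls against B-gated cells are thus not independent of the filter and give no separate support to the levels above.

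The share of cells with at least 1 UMI separated a common from a rare pattern within the NK gate. Nkg7 was detected in 465 of 482 NK-gated cells (96.5%, 95% exact binomial interval 94.4 to 97.9%), Gzma in 414 (85.9%, 82.5 to 88.9%) and Ccl5 in 412 (85.5%, 82.0 to 88.5%). Xcl1 was detected in 203 (42.1%, 37.7 to 46.7%) and Prf1 in 173 (35.9%, 31.6 to 40.4%), whereas Ccl4 was detected in 67 (13.9%), Ccl3 in 58 (12.0%) and Gzmb in 31 (6.43%, 4.41 to 9.01%). Intervals cover counting error only. With each cell thinned to 1000 UMIs, which no cell fell short of, the shares were 90.04% for Nkg7, 81.7% for Gzma, 80.7% for Ccl5, 32.8% for Xcl1, 26.6% for Prf1, 9.96% for Ccl4, 8.71% for Ccl3 and 5.39% for Gzmb. In T-gated cells Nkg7 was detected in 45.4%, Ccl5 in 32.8% and Xcl1 in 17.98%, Gzma in 7.39%, and the other 4 in 1.01 to 5.88%. In B-gated cells (median 1679 UMIs) the 8 shares were 0.0393 to 0.459%, below each gene's share in the T gate.

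UMIs of Ccl4 and Ccl3 sat in a few cells. The 24 NK-gated cells (5%) with most UMIs of a gene held 83.7% of the UMIs of Gzmb, 79.9% of those of Ccl4 and 68.2% of those of Ccl3, against 35.4% for Xcl1, 29.8% for Prf1, 19.4% for Gzma, 19.2% for Ccl5 and 13.5% for Nkg7. A sparse gene has a high share by its few UMIs alone: Gzmb had 43 UMIs in 31 cells, at most 4 in 1 cell, whereas Ccl4 had 214 in 67 cells with up to 30 and Ccl3 107 in 58 cells with up to 16. In each of the 6 mice with 22 or more Ccl4 UMIs in NK-gated cells, 1 single cell gave 57.9 to 74.3% of them. The remaining mice had fewer Ccl4 UMIs and were not examined for this. Each of the 6 would also have had fewer than 22 without its top cell. The choice of mice by UMIs thus favoured those with such a cell, and the shares do not describe all mice. The largest such cell had 30 Ccl4 UMIs in NZB replicate 2, where leaving it out lowered the Ccl4 level from 694 to 189.6 CPM.

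**Figure D2:**
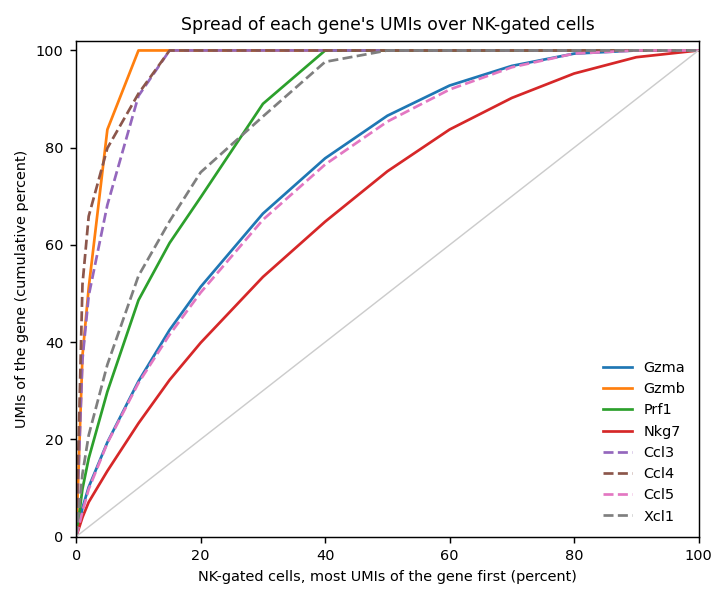
Cumulative share of each gene's UMIs (percent) over the 482 NK-gated cells, taken from the cell with most UMIs of that gene downward (percent of cells); the grey diagonal is an even spread. Gzmb, Ccl4 and Ccl3 rise fastest and reach 83.7%, 79.9% and 68.2% in the first 5% of cells, and Nkg7 lies nearest the diagonal.

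All 31 NK-gated cells with a Gzmb UMI also had Gzma and Nkg7, and of the 173 with a Prf1 UMI all had Nkg7 and 161 (93.1%) had Gzma, set beside 96.5% with Nkg7 and 85.9% with Gzma among all NK-gated cells. Ccl3 and Ccl4 were found together in 19 cells, which is 32.8% of the 58 cells with Ccl3 and 28.4% of the 67 with Ccl4. Prf1 and Gzmb were found together in 17 cells, 9.83% and 54.8% of the cells with each.

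Over the mean levels of 16 classes, the genes with the most similar profile were chosen by Pearson's r of log2(CPM + 10) among 6548 genes with at least 50 CPM in 1 class; these r describe classes that share mice and libraries. Closest to Gzma were the NK receptor genes Klra8 (r = 0.99), Klre1 and Klra4, and closest to Prf1 were Eomes (r = 0.995), which encodes a T-box factor of NK cells, Tnni1 and Klra1. Closest to Ccl5 were Sh2d2a (0.97), Klrk1 and Crtam, and closest to Xcl1 were Crtam (0.99), Sh2d2a and Klrc2. Klre1 and Klrk1 are themselves NK-gate markers. Nkg7 was closest to Cst7 (0.89), Rinl and Gfi1, of which Cst7 and Gfi1 peaked in precursor-gated cells, Gzmb to Fam174b (0.95), Chn2 and Cd200r4, Ccl3 to Sytl3 (0.91), Chn2 and Galnt6, and Ccl4 to St6galnac2 (0.92), Gnptg and Sytl3.

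Within mice, 6 of the 8 genes were higher in NK-gated than in T-gated cells (edgeR quasi-likelihood test with mouse as a block, adjusted over 9762 genes, of which 944 or 9.67% were called). The fit took its spread from the sums of all classes. Its SE and adjusted p do not measure how the difference of NK and T varied over the 9 mice alone. Gzma differed by 5.90 ± 0.27 log2 units (SE, 59.8-fold, edgeR adjusted p = 6.81e-36), Prf1 by 2.79 ± 0.24 (6.92-fold, 8.24e-22) and Nkg7 by 2.10 ± 0.18 (4.29-fold, 1.22e-17), and for these granule genes the lowest NK value lay above the highest T value over the 9 mice. Among the chemokines Ccl3 differed by 3.19 ± 0.54 (9.15-fold, 3.66e-06), Ccl4 by 1.88 ± 0.40 (3.67-fold, 0.000312) and Ccl5 by 1.68 ± 0.24 (3.21-fold, 2.84e-08). The Ccl3 value rested on 12 UMIs in T-gated cells and ranged from 2.51 to 4.57 log2 units with 1 mouse left out. Ccl3 and Ccl5 were higher in NK-gated cells of 9 of 9 mice and Ccl4 of 8, but over all mice the 2 classes overlapped. With DESeq2 the calls of Ccl5 and Ccl4 were lost (adjusted p = 0.123 and 0.0679). The median of the 8 differences was 2.09, against -0.02 over all genes tested.

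Gzmb and Xcl1 did not pass this test. Gzmb differed by 2.08 ± 0.70 (edgeR adjusted p = 0.0524) and was higher in NK-gated cells of 6 of 9 mice. Xcl1 differed by 0.33 ± 0.19 (95% interval -0.03 to 0.70, edgeR adjusted p = 0.318) and was higher in 7 of 9. In T-gated cells of NZB replicate 3, 77 of the 106 Xcl1 UMIs came from 1 cell, without which its level there was 279 in place of 958 CPM; without that mouse the Xcl1 difference was 0.70 (edgeR adjusted p = 0.00324), and with barcodes down to 500 UMIs it was 0.85 (7.41e-07). Gzmb was called with barcodes down to 500 UMIs, without doublet removal, with free RNA subtracted and without NZB replicate 2, NZB replicate 3 or NZW replicate 2 (edgeR adjusted p from 0.000145 to 0.0453).

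Of 44 other genes of granule cargo, killing and chemokine signalling, 30 could be tested between NK-gated and T-gated cells, and 9 were higher in NK-gated cells and 0 lower, where 9.67% of all genes tested were called. They included Serpinb9, the inhibitor that shields killer cells from granzyme B (3.11 ± 0.26 log2 units, SE), the T-box factor gene Eomes (2.37 ± 0.20), Serpinb6b (2.67 ± 0.29) and the protease gene Ctsw (1.32 ± 0.16), with edgeR adjusted p from 4.61e-23 to 6.31e-12. The 44 genes share Tbx21, Eomes and Ctsw with the NK check genes, so for these the comparison adds nothing to the check of the label. The granzyme genes beside Gzmb on chromosome 14, Gzmc, Gzmd, Gzme, Gzmf, Gzmg and Gzmn, had 0 UMIs in NK-gated cells, where Gzmk had 35 and Gzmm 28.

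The parent strains were compared first within NK-gated cells, where 7 of the 8 genes could be tested (Gzmb was too low) and 0 were called between NZB and NZW, with 56 of 1721 genes (3.25%) called in all. Gzma had 4682, 2537 and 3911 CPM across the NZB replicates, 5680.1, 4643 and 4336 across NZW, and 5252, 4989.7 and 5634 across NZBWF1. The NZB mice lay below all NZBWF1 mice and overlapped the NZW mice (NZB against NZW -0.39 ± 0.22 log2 units, SE, edgeR adjusted p = 0.524). Gzma was called with 1 more NK marker required (-0.63, edgeR adjusted p = 0.0481), with same-numbered mice as a block (-0.41, 0.0155) and without NZB replicate 1 (-0.59, 0.0239), and with 1 mouse left out it ranged from -0.59 to -0.20. Gzmb had 53.6, 16.9 and 16.4 in NZB, 0, 84.2 and 55.3 in NZW, and 58.9, 53.2 and 71.8 in NZBWF1, on at most 9 UMIs per mouse. Prf1 had 257, 304 and 288 in NZB, 239.8, 349 and 166 in NZW, and 442, 199.6 and 319 in NZBWF1. All 3 strains overlapped for both genes. Nkg7 was the steadiest, with 2625, 2402 and 2514 CPM in NZB, 2840.1, 2466 and 2633 in NZW, and 2641, 2116 and 2266 in NZBWF1 (NZB against NZW -0.08 ± 0.12 log2 units, 95% interval -0.32 to 0.15).

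Of the chemokines in NK-gated cells, Ccl3 had 53.6, 118 and 139.7 CPM in NZB, 75.7, 120.3 and 188 in NZW, and 324, 26.6 and 63.8 in NZBWF1. Ccl4 had 64.3, 694 and 312 in NZB, 126, 325 and 265 in NZW, and 216, 73.2 and 279 in NZBWF1. For both the spread within a strain was wider than any difference between strains, and the 95% intervals of NZB against NZW (-2.30 to 1.67 and -1.23 to 2.06 log2 units) do not show that the strains were alike. Ccl5 had 4318, 2165 and 2851 in NZB, 6879, 6003 and 5055 in NZW, and 5164, 3326 and 5107 in NZBWF1. The NZB mice lay below all NZW mice (-0.94 ± 0.31, SE), yet the test across all genes did not call it (edgeR adjusted p = 0.245). Ccl5 was called without a filter on low counts (edgeR adjusted p = 6.19e-09), with same-numbered mice as a block (0.00149), with barcodes down to 500 UMIs (0.0138) and without NZB replicate 1 (0.0316).

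**Figure D3:**
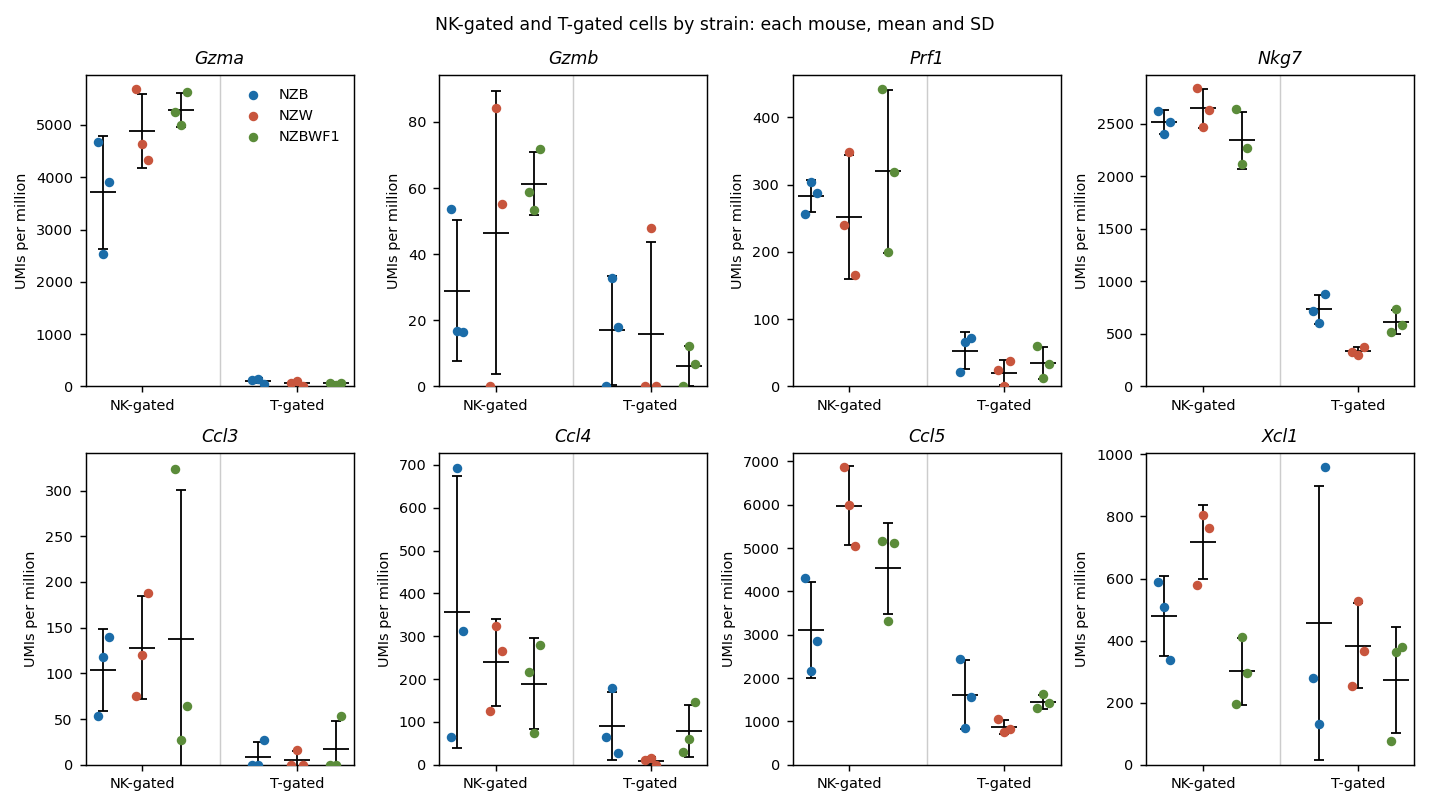
CPM (linear axes from 0, a scale for each gene) of the 8 genes in NK-gated cells at the left and T-gated cells at the right of each panel, 1 point per mouse, with strain means and SD bars (n = 3, bars below 0 are cut). In the Nkg7 panel the 3 NZW mice lie at 304 to 379 in T-gated cells, below the other 6, and in the Xcl1 panel the NZBWF1 mice have the lowest mean in NK-gated cells, 301.

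Xcl1 was the gene called for the hybrid. In NK-gated cells it had 589, 507 and 337 CPM across the NZB replicates, 581, 806 and 763 across NZW, and 196, 412 and 295 across NZBWF1. The NZBWF1 mice lay below all NZW mice and overlapped the NZB mice. NZBWF1 against the mean of the parents was -0.94 ± 0.21 log2 units (SE, 0.522-fold, edgeR adjusted p = 0.0160), 1 of 7 members tested where 8 of 1721 genes (0.465%) were called. The call was lost with DESeq2 (adjusted p = 0.101), with 1 more NK marker required (0.636), with barcodes down to 500 UMIs (0.364), and without NZB replicate 1 (0.110), NZW replicate 3 (0.0747), NZBWF1 replicate 1 (0.128) or NZBWF1 replicate 3 (0.146), while the difference stayed between -1.23 and -0.73 under all 17 alternatives. In the same NK-gated sums the 9 T-gate markers, of which 3 were at 0, totalled 246 to 440 CPM in NZB, 321 to 391 in NZW and 187 to 303 in NZBWF1, the 7 NK-gate markers 4533 to 5702, 5465 to 7005 and 5331 to 5556, and the 10 neutrophil-gate markers 546 to 930, 940 to 1937 and 991 to 1995, and their part in the result was not tested. The other 6 genes tested ranged from -0.63 (Ccl4) to 0.28 (Gzma), with edgeR adjusted p of at least 0.964.

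In T-gated cells only Nkg7, Ccl5 and Xcl1 passed the filter on low counts. Nkg7 had 719, 605 and 876 CPM across the NZB replicates, 328, 304 and 379 across NZW, and 519.9, 737 and 585 across NZBWF1. The NZW mice lay below all mice of the other strains, and the hybrid overlapped NZB. NZB exceeded NZW by 1.17 ± 0.24 log2 units (SE, 2.25-fold, edgeR adjusted p = 0.000777), 1 of 3 members tested where 31 of 1400 genes (2.21%) were called, and the call held under all 17 alternatives (adjusted p at most 0.0182 with 1 mouse left out). For NZBWF1 against the parents 0 of the 3 were called (5 genes, 0.357%, in all).

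Ccl5 in T-gated cells had 2436, 850.5 and 1563 CPM in NZB, 1058, 752 and 822 in NZW, and 1299.7, 1632 and 1415 in NZBWF1. The NZW mice were low and overlapped NZB by NZB replicate 2. NZB against NZW was 0.92 ± 0.27 log2 units (SE, edgeR adjusted p = 0.118), and it was called with DESeq2 (0.0161), without the filter on low counts (0.00251), with same-numbered mice as a block (7.19e-05), with 1 more T marker required (0.00043) and without NZB replicate 2 (2.07e-05), NZB replicate 3 (0.0403) or NZW replicate 1 (7.43e-05). Xcl1 had 279, 131 and 958 in NZB, 255, 528 and 367 in NZW, and 75.0, 363 and 379 in NZBWF1, all overlapping (0.39 ± 0.83, without NZB replicate 3 the value was -0.74). Below the filter, T-gated cells of a mouse had at most 13 UMIs of Gzma, 3 of Gzmb, 12 of Prf1, 8 of Ccl3 and 22 of Ccl4.

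The coreceptors placed 266 of the 595 T-gated cells with Cd8a or Cd8b1 UMIs, 40 with Cd4 and 289 with neither. Pooled over mice, with no test, Nkg7 had 547 CPM in Cd8 cells and 676 in cells with neither, and Ccl5 had 615 and 2213. The Cd4 cells held 9 Nkg7 and 26 Ccl5 UMIs, 25 of the latter from NZB replicate 1 and NZBWF1 replicate 1, and are not compared. Cells with neither coreceptor therefore carried 986 of the 1259 Ccl5 UMIs. The strain order of Nkg7 was present on both sides of this split: 694 in NZB and 343 in NZW within Cd8 cells, and 896 and 379 within cells with neither. Cd8 cells made up 52.4 ± 14.9% of T-gated cells in NZB and 38.9 ± 4.398% in NZW (SD, n = 3). In T-gated cells the 7 NK-gate markers totalled 327 to 655 CPM in NZB and 430.1 to 632 in NZW, the 5 precursor-gate markers 10.7 to 81.8 and 12.6 to 32.0, the 10 neutrophil-gate markers 483 to 2304 and 885 to 2736, and the 4 plasma-gate markers 18.1 to 4841 and 0 to 12.6. The T markers themselves were lower in all NZB than in all NZW mice, at 3740 to 4023 against 4161 to 4304 CPM for the 9 of the gate and 2437 to 2887 against 3529 to 3587 for the 5 check genes, and the 7 B-gate markers, of which 3 were at 0, were higher (36.1 to 65.4 against 16.0003 to 25.3). The part of these lists in the Nkg7 difference was not tested.

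Cells of both gates had no more than 29 per mouse, and 5 of the 8 genes could be tested there. Gzma had 700.4, 636 and 1144 CPM in NZB, 2635, 1624 and 4079 in NZW, and 653, 1426 and 866 in NZBWF1. All NZW mice lay above all mice of the other strains. NZB against NZW was -1.71 ± 0.33 log2 units (SE, 0.305-fold, edgeR adjusted p = 0.00307), 1 of 5 members tested where 16 of 545 genes (2.94%) were called; without NZW replicate 1 the adjusted p was 0.0805. In NZW replicate 2, 12 of the 22 Gzma UMIs came from 1 cell, without which its level was 822 in place of 1624 CPM, and with the top cell of NZBWF1 replicate 2 also left out that mouse had 912, so that the strains then overlapped. NK-gate markers there totalled 4174 to 4847 in NZB and 4207 to 5328 in NZW, and T-gate markers 2702 to 3530 and 2170 to 3173 CPM, while the 8 erythroid-gate markers were lower in all NZB mice (0 to 194 against 207 to 291), and their part in the result was not tested.

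**Figure D4:**
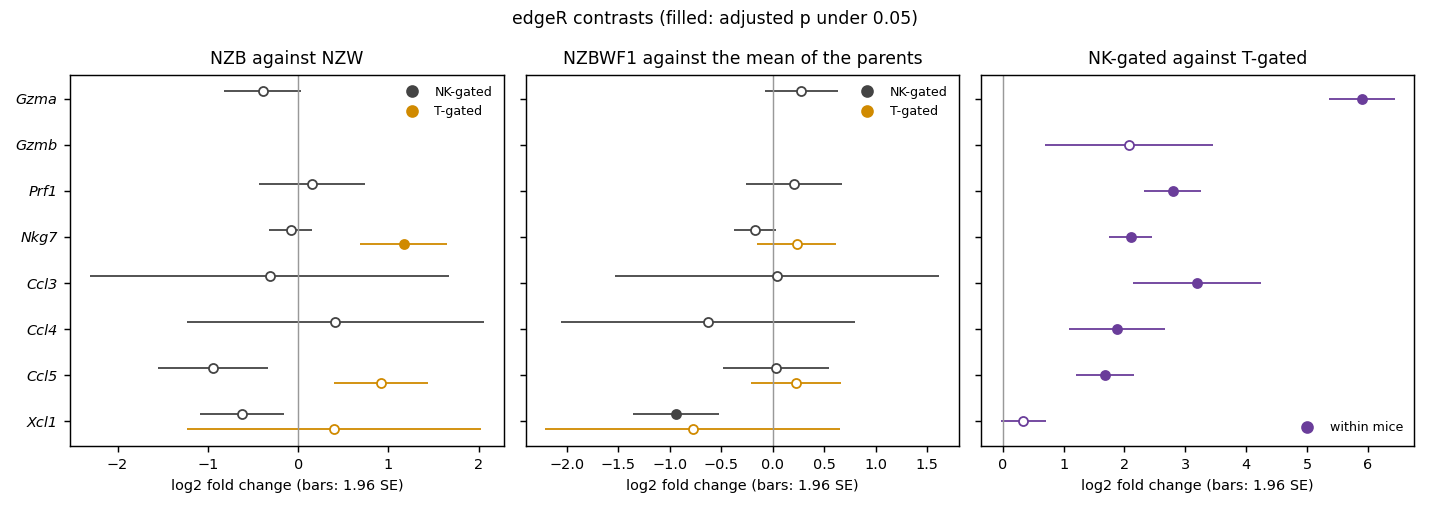
Log2 fold changes from edgeR for NZB against NZW, NZBWF1 against the mean of its parents, and NK-gated against T-gated cells within mice; bars are 95% intervals and filled points passed an adjusted p of 0.05. Nkg7 in T-gated cells (1.17) and Xcl1 in NK-gated cells (-0.94) are the filled points of the strain panels, and 6 of 8 genes are filled in the panel of NK-gated against T-gated cells.

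Whether the parents' difference was the same in NK-gated and T-gated cells was tested as the difference of the 2 strain differences in 1 fit with mouse as a block, a test added after the values were seen. Ccl5 in NK-gated relative to T-gated cells was lower in NZB than in NZW by -1.84 ± 0.19 log2 units (SE, edgeR adjusted p = 1.86e-11) and Nkg7 by -1.24 ± 0.26 (0.00328), 2 of 7 members tested where 12 of 2058 genes (0.583%) were called. Nkg7 lost this call without NZW replicate 1 (0.0542), and Ccl5 with barcodes down to 500 UMIs (0.170). In the same sums the 5 T check genes were lower in all NZB than in all NZW mice, in NK-gated (633 to 930 against 1335 to 1616 CPM) as in T-gated cells. Also lower in NK-gated cells of all NZB mice were the markers of the monocyte gate (813 to 879 against 938 to 1262), the neutrophil gate (546 to 930 against 940 to 1937) and the erythroid gate (150 to 189.0 against 189.3 to 240.6). The part of these lists in the results was not tested. For NZBWF1 against the parents the same test called 0 members and 1 gene (0.0486%) in all.

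Nkg7 differed between the parents in several myeloid classes as well. In cells of the precursor and monocyte gates it had 153, 77.9 and 88.3 CPM in NZB, 10.7, 22.0 and 17.7 in NZW, and 101, 112 and 72.5 in NZBWF1. The NZW mice lay below all others, with 8 to 21 UMIs each, and the hybrid overlapped NZB. NZB exceeded NZW by 2.54 ± 0.32 log2 units (SE, 5.80-fold, edgeR adjusted p = 3.09e-05, 10.7% of genes called), a call kept under all 17 alternatives. The 5 precursor-gate markers (Mpo, Elane, Prtn3, Ctsg, Ms4a3) totalled 15829.5 to 19379.9 CPM in NZB and 15972 to 16800.4 in NZW in these cells, and the 6 monocyte-gate markers 2055 to 2805 and 2474 to 2784. Of the less abundant lists, those of the stem gate (37.2 to 69.6 in NZB against 99.2 to 115 in NZW), the B gate (29.5 to 34.3 against 54.0 to 81.3), the NK gate (6.32 to 7.46 against 13.6 to 18.7) and the megakaryocyte gate (3.73 to 4.91 against 5.23 to 7.997) were lower in all NZB mice and that of the macrophage gate higher (24.9 to 35.4 against 15.99 to 16.7). The part of these lists in the result was not tested.

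In the precursor gate itself Nkg7 had 990.3, 1016 and 1082 CPM in NZB, 922, 789 and 729 in NZW, and 1180.2, 858 and 758 in NZBWF1. The NZB mice lay above the NZW mice by 0.18 ± 0.13 log2 units (SE, 95% interval -0.09 to 0.44, edgeR adjusted p = 0.507, 8.33% of genes called). Cells of the precursor and neutrophil gates had 601, 664 and 677 in NZB, 398, 439 and 448 in NZW, and 610.1, 482 and 538 in NZBWF1, with NZB above NZW by 0.53 ± 0.15 (edgeR adjusted p = 0.0148, 5.2% called); precursor-gate markers were 22576 to 28580.0 in NZB and 19704 to 21758 in NZW there, basophil-gate markers 10.5 to 17.6 and 3.18 to 8.56, and T-gate markers 0 to 3.94 and 15.9 to 19.97, and their part was not tested. That call was lost with 1 more marker required (adjusted p = 0.319) and without NZB replicate 2, NZW replicate 1 or NZW replicate 2 (0.0515 to 0.104).

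Lower levels gave the same order. In neutrophil-gated cells Nkg7 had 20.1, 21.9 and 15.8 CPM in NZB, 12.1, 14.6 and 11.2 in NZW, and 20.7, 21.7 and 11.6 in NZBWF1 (NZB against NZW 0.79 ± 0.23 log2 units, SE, edgeR adjusted p = 0.0288, 11.1% of genes called). The 74.1 CPM of Nkg7 in free RNA is a level within that RNA, not an amount added to a cell. The call held with free RNA subtracted. In the same neutrophil-gated cells the 9 T-gate markers totalled 8.57 to 9.98 CPM in NZB and 148 to 240.3 in NZW, and those of the macrophage gate (34.9 to 40.2 against 41.7 to 64.5) and the megakaryocyte gate (7.30 to 10.1 against 10.3 to 16.8) were also lower in all NZB mice, and their part in the result was not tested. In stem-gated cells Nkg7 had 171, 172 and 249 in NZB, 51.0, 0 and 34.1 in NZW, and 82.8 and 21.6 in the 2 NZBWF1 mice with 10 cells or more, on 0 to 19 UMIs per mouse (2.67 ± 0.72, edgeR adjusted p = 0.0107, 4.04% called). It passed the filter on low counts there only through the NZB mice, where it was high. The test is thus not independent of the filter and gives no separate support. The neutrophil call was lost with barcodes down to 500 UMIs and without any of 4 mice (NZB replicates 1 and 2, NZW replicates 1 and 3, adjusted p 0.0552 to 0.145), and the stem call with DESeq2 and without any of 3 (NZB replicates 2 and 3, NZW replicate 2, 0.0716 to 0.136). In stem-gated cells the precursor-gate markers totalled 1361 to 1862 CPM in NZB and 1314 to 2436 in NZW, the basophil-gate markers 19.1 to 31.0 and 0 to 16.5, the cDC-gate markers 26.2 to 46.5 and 0 to 16.5, and the stem-gate markers 683 to 983 and 1177 to 1349, and their part in the result was not tested. In basophil-gated cells Nkg7 had 520.4, 656 and 481 in NZB, 268, 398 and 339.8 in NZW, and 432 and 388 in the NZBWF1 mice, without a call (0.68 ± 0.35, edgeR adjusted p = 0.324, 6.66% called).

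**Figure D5:**
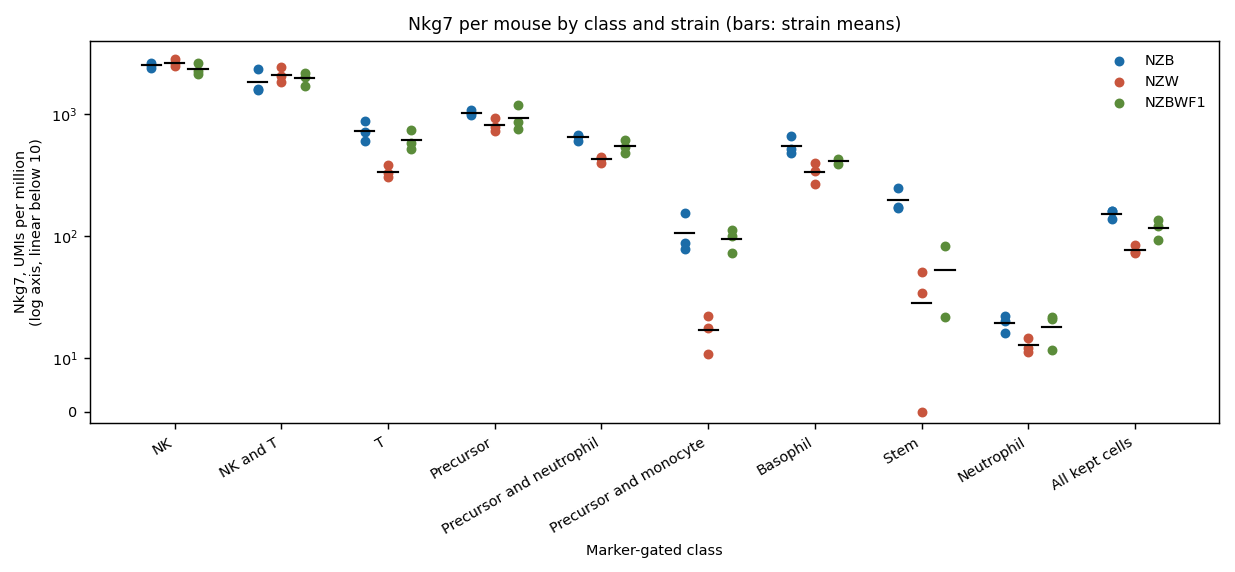
Nkg7 in 9 marker-gated classes and in all kept cells (CPM, log axis that is linear below 10), 1 point per mouse with at least 10 cells, bars at the strain means. NK-gated mice of all strains lie between 2116 and 2840.1, whereas the NZW mice lie below the NZB mice in T-gated cells (304 to 379 against 605 to 876) and in cells of the precursor and monocyte gates (10.7 to 22.0 against 77.9 to 153).

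No other strain comparison called any of the 8 genes with edgeR. Between NZB and NZW these were B-gated (3 genes tested, 3.21% of all genes called) and monocyte-gated cells (1 tested, 21.9%). In the 4421 monocyte-gated cells Ccl5, the gene tested, had 1.40, 1.99 and 0 CPM for NZB, 10.7, 10.8 and 38.1 for NZW, and 44.4, 4.86 and 16.2 for NZBWF1. The NZB mice lay below all others (NZB against NZW -3.87 ± 1.47 log2 units, SE, edgeR adjusted p = 0.121). Ccl5 passed the filter on low counts there only through NZW and NZBWF1 mice, where it was higher. The comparison is thus not independent of the filter and gives no separate support. The 91.2 CPM of Ccl5 in free RNA is likewise a level within that RNA, not an amount added to a cell. The part of free RNA in these monocyte-gated levels was not tested. In B-gated cells Nkg7 was at 2.34 ± 0.74 (edgeR adjusted p = 0.0918). For NZBWF1 against the parents they were cells of both gates (0.183%), B-gated (0.287%), basophil-gated (0.487%), monocyte-gated (1.97%), neutrophil-gated (0.362%), precursor-gated (0.136%) and stem-gated cells (0.18%), and cells of the precursor and monocyte gates (0.322%) and of the precursor and neutrophil gates (0.219%), with 1 to 5 of the 8 genes tested in each.

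Summed over all kept cells, Nkg7 had 159.8, 159 and 138 CPM in NZB, 83.9, 74.4 and 72.2 in NZW, and 136, 119.8 and 91.9 in NZBWF1. The NZB mice were highest, the NZBWF1 mice intermediate and the NZW mice lowest, without overlap. NZB exceeded NZW by 1.08 ± 0.13 log2 units (SE, edgeR adjusted p = 5.32e-05), the 1 called of 8 members where 19% of 12536 genes were called, and the call held under all 16 alternatives that apply. For NZBWF1 against the parents 0 of 8 were called (0.933% of genes). Shares of the classes and levels within them cannot be told apart in these sums. As means of the mice, B-gated cells took 7.48% of kept cells in NZB and 25.7% in NZW, pDC-gated cells 10.2% and 2.21%, and precursor-gated cells 3.38% and 2.88%. Of the 44 other genes, 30 were tested in these sums and 12 were called between NZB and NZW, 9 higher in NZB, among them Serpinb6b (1.60 ± 0.21 log2 units, SE) and Ctsc (1.23 ± 0.14), which encodes the protease that activates granzymes and neutrophil serine proteases, and 3 lower, among them Zeb2 (-0.60 ± 0.09). In NK-gated cells 13 of the 44 were tested and 0 called in either strain comparison, and in T-gated cells 4 were tested and Id2 was called (-0.89 ± 0.26 in NZB against NZW, edgeR adjusted p = 0.0480).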

How the data were processed

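Femur marrow of 9 mice was profiled, 3 per strain. The authors made the deposited UMI counts with bcl2fastq 2.20 and Cell Ranger 3.1.0 (mm10, per the submitters' processing notes) and merged the libraries into 1 matrix; the sources used here do not give whether merging equalised depth. Barcodes were assigned to mice by the library number after the barcode, read as the line of the deposited merging list. Groups came from the strain named in the labels.

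From the counts, barcodes with at least 1000 UMIs, 500 genes and at most 10% mitochondrial UMIs were kept, as in the study's methods. Likely doublets were removed per library with scanpy 1.11.5, at an expected 0.8% per 1000 cells. A class held the cells that met 1 marker gate, and joint classes the cells that met both gates named. None of the 8 genes was in a gate. Counts were summed per class and mouse (at least 10 cells) and tested with edgeR 4.0.16 in R 4.3.3 (TMM, filterByExpr, robust quasi-likelihood fit, Benjamini-Hochberg adjustment over all genes tested, threshold 0.05), as NZBWF1 against the mean of the parents and as NZB against NZW. Classes were compared in 1 fit over the sums of all classes with mouse as a block, so that SE and p reflect the spread over all classes. Log2 fold changes are given with SE and 95% intervals assume a normal error. Shares of cells were tested by exact permutation (scipy 1.17.1). The code was tested on simulated data. Total UMIs per mouse, 7858010 to 17327216, set the precision: sums over 33 to 72 NK-gated cells of a mouse hold few UMIs of a low gene.

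All 8 genes were followed in every comparison, with counts alone in some where none of those tested was called, and of 44 related genes at most 5 per comparison, those called, by p. The result of 1 of these related genes is not reported here. The 3 most similar genes were named for each. Members and lists were chosen with earlier results of these data known. Alternatives were DESeq2 1.42.0, its size factors in edgeR, no filter on low counts, a replicate block, 1 more marker per gate, a limit of 500 UMIs and 300 genes, no doublet removal, free RNA subtracted, and each mouse left out. Same-numbered mice were not taken as pairs: no source says that a number marks a shared litter or day. The paper mentions batches without saying which libraries they held. Deviations of same-numbered mice from the strain means correlated above 0.1 in 6 of 9 pairs in NK-gated cells and 3 of 9 in T-gated cells. Over all kept cells this held in 7 of 9, not in every pair, with a mean of 0.233. The mean for mice of other numbers was -0.115 there. It follows largely from the first, because the 3 deviations of a strain sum to 0, and is no separate comparison.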

Additional observations from a re-analysis of the deposited data

Results flagged for a closer look

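2 of the differences between NZB and NZW were not the same in NK-gated and T-gated cells, by a test of the difference itself that was added after seeing the data. For Ccl5 the strain difference was -0.94 ± 0.31 log2 units (SE) in NK-gated and 0.92 ± 0.27 in T-gated cells, neither of which passed on its own (edgeR adjusted p = 0.245 and 0.118), and the test of NK minus T gave -1.84 ± 0.19 (edgeR adjusted p = 1.86e-11), a call lost with barcodes down to 500 UMIs (0.170). With same-numbered mice as a block both strain differences of Ccl5 were called (edgeR adjusted p = 0.00149 and 7.19e-05). For Nkg7 it was -0.08 ± 0.12 in NK-gated and 1.17 ± 0.24 in T-gated cells, and NK minus T gave -1.24 ± 0.26 (edgeR adjusted p = 0.00328). All 3 NZW mice had more Ccl5 than all NZB mice in NK-gated cells and less Nkg7 than all NZB mice in T-gated cells, where Ccl5 overlapped between these strains. The Nkg7 call was lost without NZW replicate 1 (edgeR adjusted p = 0.0542). The 5 T check genes totalled 633 to 930 CPM in NZB and 1335 to 1616 in NZW in NK-gated cells, and 2437 to 2887 and 3529 to 3587 in T-gated cells. In NK-gated cells the markers of the monocyte gate (813 to 879 against 938 to 1262), the neutrophil gate (546 to 930 against 940 to 1937) and the erythroid gate (150 to 189.0 against 189.3 to 240.6) were also lower in all NZB mice. The part of these lists in either result was not tested. Each strain had 3 mice in both classes.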

How the results depend on the processing

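Every test of the 8 genes was followed through the settings for the strain contrasts in NK-gated and T-gated cells and for NK-gated against T-gated cells. In the other comparisons only tests called in the main run were followed, so the share called is set by that choice. Of these 83 tests, 63 were called. Of the 63, 41 held under every alternative run, and 20 kept their direction but lost the call under at least 1. The other 2 turned sign without a call under 1 (Ccl3 and Xcl1 in macrophage-gated cells). Of the 20 not called, all from the NK and T comparisons, 5 were called under at least 1. The cause of these changes was not tested.

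For NZBWF1 against the parents in NK-gated cells, 0 of the genes were called with DESeq2, the stricter gate or barcodes down to 500 UMIs, and 0 to 1 with 1 mouse left out, against 1. For NZB against NZW in NK-gated cells, 1 was called without the filter on low counts, 1 with the stricter gate, 1 with 500 UMIs and 0 to 2 with 1 mouse left out, against 0. In T-gated cells 2 were called with DESeq2, without the filter and with the stricter gate, and 1 to 2 with 1 mouse left out, against 1. Over the other classes 5 calls became 11 without the filter and 3 to 6 with 1 mouse left out; over all kept cells 1 became 2 with 500 UMIs and 1 to 2 with 1 mouse left out. The added test of NK minus T went from 2 to 1 with 500 UMIs and 1 to 2 with 1 mouse left out for NZB against NZW, and from 0 to 1 with the stricter gate for NZBWF1.

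With the replicate block, which does not pair mice by any source, 2 genes were called for NZB against NZW in NK-gated cells (Ccl5 and Gzma, edgeR adjusted p = 0.00149 and 0.0155), 2 in T-gated cells (Nkg7, and Ccl5 with 7.19e-05) and 9 in the other classes, and the counts for the other strain comparisons were as without it. The number of all genes called between NZB and NZW in NK-gated cells was 109 against 56.

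Signs turned as follows. In NK-gated cells for NZB against NZW, Prf1 was -0.13 with 500 UMIs and -0.088 to 0.45 with 1 mouse left out, Ccl3 -0.70 to 0.072 with 1 left out, and Ccl4 -0.79 with the stricter gate, -0.056 with 500 UMIs and -0.29 to 0.94 with 1 left out. For NZBWF1 there, Prf1 was -0.020 with 500 UMIs and -0.074 to 0.50, Ccl3 -0.51 with the stricter gate, -0.047 without doublet removal and -1.42 to 0.64, and Ccl5 -0.055 with 500 UMIs, -0.041 without doublet removal and -0.073 to 0.23. In T-gated cells Ccl5 for NZBWF1 was -0.053 with the stricter gate and Xcl1 for NZB against NZW -0.74 to 0.73. In macrophage-gated against B-gated cells, called on 69 cells, Ccl3 was -1.74 to 5.81 and Xcl1 -1.51 to 6.10.

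Counts of all genes called moved by more than 1.5 times with DESeq2 in NK-gated cells (8 to 4 for NZBWF1, 56 to 32 for NZB against NZW) and over the other classes (6214 to 3847), in T-gated cells with 500 UMIs (31 to 71), without NZW replicate 3 in NK-gated cells (56 to 35) and all kept cells (2502 to 1653), and in NK minus T for NZB against NZW (12 to 3 with 500 UMIs, 5 without doublet removal, 5 and 6 without NZW replicates 1 and 2). For NK minus T in NZBWF1 the 1 gene called became 2 without the filter and with the stricter gate, 0 without NZB replicate 2, NZW replicate 1 or 2 or NZBWF1 replicate 1 or 3, 2 without NZBWF1 replicate 2 and 4 without NZB replicate 3. The stricter gate has no meaning for all kept cells, and DESeq2 and the block were not run for NK minus T. Depth limits Gzmb, Ccl3 and Ccl4 most, with 43 to 214 UMIs in NK-gated cells.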

Other observations

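Barcodes with at least 500 but under 1000 UMIs, below the limit used, were gated in the same way: 328 met the NK gate, with 8026 CPM of Gzma, 8626 of Ccl5, 3221 of Nkg7, 589 of Prf1 and 647 of Xcl1, pooled over mice. The 482 kept NK-gated cells had lower pooled levels, at 4735, 4473, 2468, 282 and 472 CPM in the same order. Another 877 of these barcodes met the T gate, more than the 595 kept. Their Xcl1 level was 126 CPM, against 352 in kept T-gated cells, so Xcl1 was less evenly shared there. The 10645 B-gated barcodes of that set had at most 1.90 CPM of any of the 8 genes (Nkg7).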
